A study of Mus musculus with 3 samples.

Results

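Solute carriers are the membrane proteins of the SLC gene families, which move nutrients, ions and metabolites into and out of cells and organelles. The genes described here were taken from the deposited table by symbol. A gene qualified if its name starts with Slc and a digit, the mitochondrial Slc25a carriers were left out, and each gene was represented by its listed transcript with the highest mean abundance, if that reached 1 TPM in at least 1 library. TPM is the transcript abundance scaled to a total of 1000000 per library. This gave 52 genes of the 4320 detected genes of the table. A further 26 Slc symbols stayed under 1 TPM in every library. The nearest of these were Slc35d2, with a highest value of 0.89 TPM, and Slc10a4, with 0.86 TPM. Just inside the minimum were Slc9a3, with a highest value of 1.13 TPM, and Slc6a14, with 1.16 TPM.

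The study sequenced poly(A) cDNA of mouse oocytes (strain ICR), which were collected as immature germinal vesicle oocytes and matured in vitro until metaphase II, where the egg awaits the sperm. Its 3 groups were young oocytes and aged oocytes matured in M16 medium, and aged oocytes matured in M16 medium mixed in equal parts with secretome (aged-sec), which is what mesenchymal stem cells of the human umbilical cord release. Each group was 1 library made from 20 oocytes pooled from 4 mice. The groups rest on the titles, because the treatment label names the secretome on all 3 samples, and no mouse ages are given in the sources used here. With 1 library per group there is no replicate error and no test, and each difference below is between libraries and not shown to be between conditions.

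The table itself fixes part of what can be seen. All of its 9126 transcripts stand at least 1.2 times as high in the aged library as in the young one, and 0 of them have a zero. Every listed transcript therefore exceeds its young value by selection. The selected aged values also enter every aged-sec over aged ratio, and the part of the selection in those ratios was not tested. Throughout, 3 values in a row are those of the young, the aged and the aged-sec library, in this order. The listed transcripts summed to 229243, 324814 and 321460 TPM, and the read depth is unknown because TPM does not keep it. Of 328 protein-coding solute carrier genes in the RefSeq annotation, 78 (23.8%) had a listed transcript, against 27.3% of all protein-coding genes. Of 20 oocyte markers 8 were listed, with a summed level of 6819, 10055 and 9888 TPM, of which Bmp15 stood at 585, 817 and 799 TPM and Rfpl4 at 3024, 4485 and 4098 TPM, while Zp2 stood at 20.5, 39.3 and 20.5 TPM and Gdf9 at 4.36, 6.81 and 4.46 TPM. The Zp2 and Gdf9 values are each those of a predicted transcript. Transcripts left out by the selection of the table are not in them, so they need not be the levels of the genes. Of 16 cumulus and granulosa markers only Fshr and Kitl were among the transcripts analysed, with a summed level of 1.20, 2.37 and 1.78 TPM. Of 6 theca and stroma markers 4 were listed, summing to 2.38, 4.42 and 3.38 TPM, with Col1a1 at 0.01 to 0.04 TPM, and 0 of 5 blood markers were. The part of such cells in the results was not tested.

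An egg at metaphase II makes almost no new mRNA, and it lives on transcripts stored during growth that are translated, kept or degraded in turn. Its carriers supply amino acids, cystine for glutathione, zinc for the meiotic arrest, and the ion exchange that holds volume and pH. Many carriers work as assemblies: the heavy chain encoded by Slc3a2, also called CD98, brings light chains of the Slc7 family, such as the cystine and glutamate exchanger Slc7a11, to the cell surface.

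The 52 genes summed to 722, 1074 and 843 TPM in the 3 libraries. Slc9b1, Slc3a2 and Slc39a10 together held 76.5%, 71.2% and 70.6% of this. They were the only genes of the 52 at 100 TPM or more. A further 9 genes reached 10 TPM in at least 1 library, 11 had a highest value from 5 to under 10 TPM, and 29 stayed under 5 TPM. The aged library held the highest value of 43 of the 52 genes and the aged-sec library that of the other 9. The young library could not hold it, because of the selection of the table. The aged-sec value was below the aged one in 82.7% of the carriers and in 73.8% of all detected genes. Each library was made from the same number of oocytes, and TPM is scaled to a fixed total per library. A TPM value is therefore a share of the transcripts of a library and not an amount per oocyte. Whether a difference lies in all oocytes of a pool or in some of them was not tested.

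**Figure D1:**
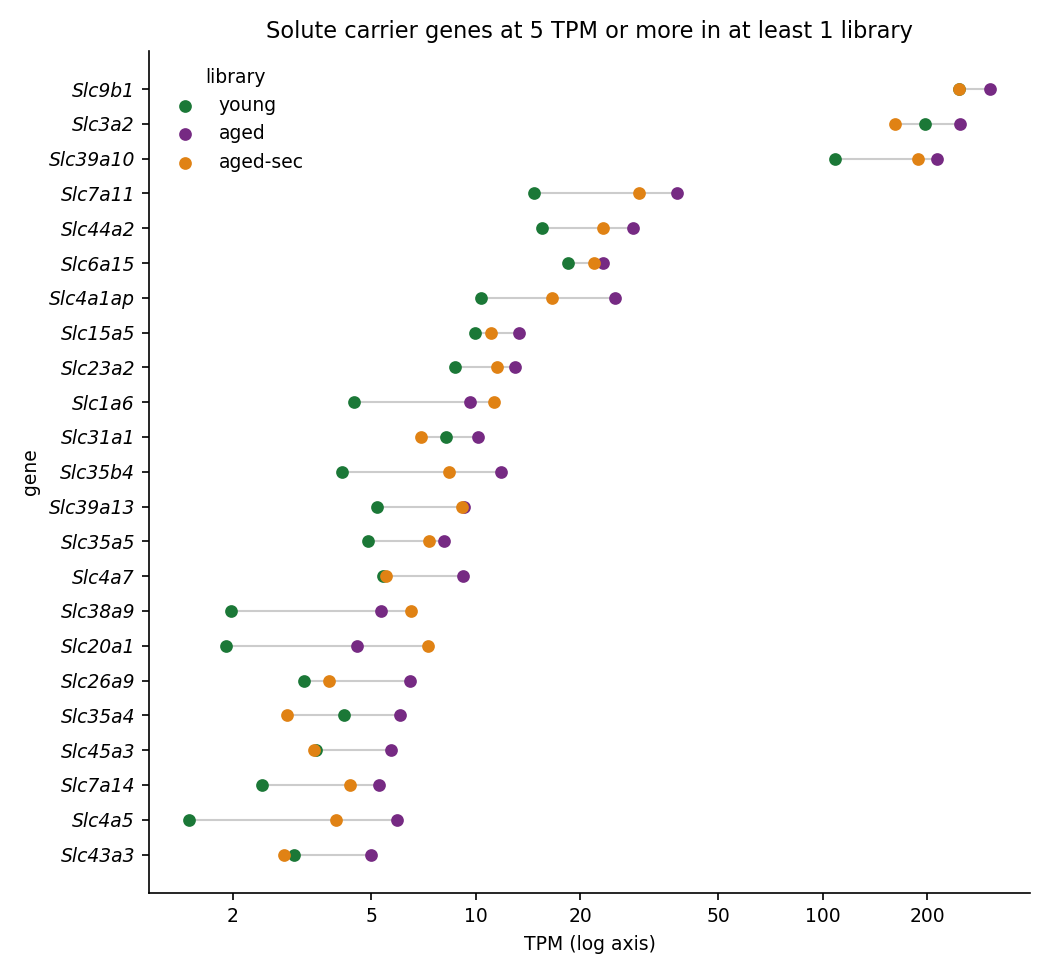
TPM on a log axis (horizontal) of the 23 solute carrier genes that reached 5 TPM in at least 1 library (vertical), 1 point per library, with a grey line from the lowest to the highest value. Slc9b1, Slc3a2 and Slc39a10 lie apart from the rest at 108 to 302 TPM, and the young and aged-sec points of Slc9b1 fall on each other at 247 and 246 TPM.

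In the comparison of aged with young oocytes, a difference was called by size, as a log2 ratio of at least 1 with 0.5 TPM added to both values, where the larger value was 10 TPM or more. Of the 11 solute carrier genes with enough TPM, 3 met it: Slc7a11, Slc35b4 and Slc4a1ap. Over all genes the rule was met by 280 of 1759, or 15.9%, and since the table was selected on this ratio the count says nothing on carriers as a family. The median log2 ratio was 0.67 over the 52 genes and 0.56 over all detected genes. Slc39a10 lay just outside the rule, at a log2 ratio of 0.98. Rescaling the libraries to the listed transcripts, which were chosen for being high in the aged library, shifted the aged over young log2 ratios of the 52 genes by −0.79 to −0.48, least for low genes because of the added 0.5 TPM. After it none of the 52 met the size rule, 26 of the 52 genes lay above 0 and 26 below, and Slc3a2, Slc9b1 and Slc6a15 lay on the lower side.

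Between aged-sec and aged oocytes none of the 12 solute carrier genes with enough TPM met the size rule in either direction. Over all genes it was met by 39 of 1789 for lower values (2.18%) and by 3 for higher values (0.168%). Of the 52 genes 43 had less in the aged-sec library than in the aged one and 9 had more. Lower values were found for 82.7% of the carriers and for 73.8% of all detected genes, and the median log2 ratios were −0.31 and −0.23. With median-of-ratios scaling of the listed transcripts, which raised these log2 ratios of the 52 genes by 0.20 to 0.29, the shares lower were 55.8% and 46.3%, and with upper-quartile scaling 63.5% and 49.9%. By level, the median log2 ratio of the carriers beside that of all genes was −0.33 and −0.29 where the highest library had 1 to 5 TPM, −0.52 and −0.23 at 5 to 10 TPM, and −0.28 and −0.21 at 10 to 100 TPM. The 3 genes over 100 TPM had a median of −0.30, and the 291 genes of that level −0.12. The 9 genes with more in the aged-sec library were Slc1a6, Slc38a9, Slc20a1, Slc17a6, Slc2a1, Slc11a2, Slc7a2, Slc30a6 and Slc16a10, of which Slc1a6 alone reached 10 TPM. These values are descriptions of 3 libraries and carry no test.

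Between aged-sec and young oocytes Slc1a6 alone met the size rule, of 10 solute carrier genes with enough TPM, and it did not meet it under either rescaling. Over all genes it was met by 228 of 1609 for higher values (14.2%) and by 5 for lower values (0.311%). The aged-sec value was above young for 39 of the 52 genes, against 79.7% of all detected genes, and below young for 13 of them (25%), against 20% of all. Those 13 were Slc9b1 and Slc3a2, the most abundant of the family, and Slc31a1, Slc35a4, Slc45a3, Slc43a3, Slc37a3, Slc30a4, Slc20a2, Slc19a1, Slc35a2, Slc6a14 and Slc16a12. The comparisons share libraries, so these counts are not independent of those above.

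**Figure D2:**
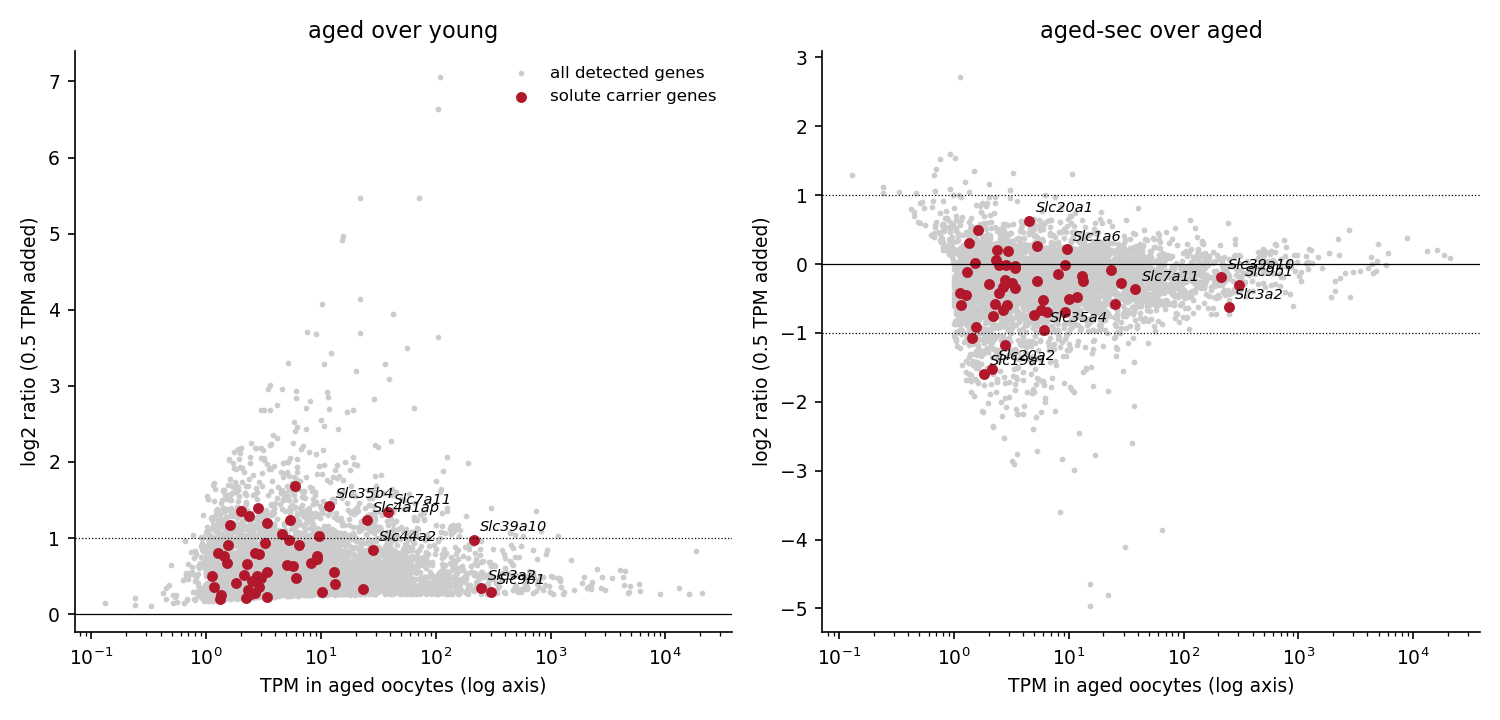
Log2 ratio with 0.5 TPM added (vertical) against TPM in aged oocytes on a log axis (horizontal) for aged over young (left) and aged-sec over aged (right). Red points are the 52 solute carrier genes, grey points all 4320 detected genes, and dotted lines mark a log2 ratio of 1 in size. On the left the selection of the table leaves no point below 0, and on the right Slc3a2 lies at −0.63 among genes of its level.

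Amino acid carriers made up 11 of the 52 genes and summed to 246, 344 and 245 TPM. Slc3a2 carried most of that sum. Its leading transcript stood at 197, 249 and 161 TPM, so that aged-sec was the lowest library. The aged over young ratio was 1.26, the aged-sec over aged ratio 0.647 and the aged-sec over young ratio 0.817. Slc3a2 is the heavy chain of several amino acid exchangers and has no transport path of its own. The curated transcript NM_008577 kept the same order at 52.1, 73.0 and 49.9 TPM, and a minor predicted one stood at 1.23, 2.05 and 1.77 TPM. The fourth annotated mRNA of the gene was not analysed here. Among the 291 genes with 100 to 1000 TPM in their highest library, 11 had a lower aged-sec over aged ratio than Slc3a2. Only 2 of them, Cnot9 and Zfyve21, had a lower aged-sec over young ratio; they are named after their values were seen. Under both rescalings the aged-sec value of Slc3a2 was still below its aged value, at log2 ratios of −0.34 and −0.38.

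Slc7a11, the light chain that exchanges cystine for glutamate and so feeds glutathione synthesis, followed another course. It stood at 14.7, 38.1 and 29.6 TPM. Both aged libraries were therefore well above the young one, with ratios of 2.59 and 2.01. The aged-sec over aged ratio was 0.777, against a median of 0.861 for genes at 10 to 100 TPM. Of the 1457 genes at that level 109 had a higher aged over young ratio. Slc7a11 and Slc3a2 thus differed in where the aged-sec value lay: between young and aged for Slc7a11, and below young for Slc3a2. Only 1 of the 5 annotated Slc7a11 mRNAs was listed.

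Slc7a11 and Slc3a2 are known targets of the amino acid response, in which the transcription factor ATF4 binds composite sites near gene starts. Their start windows from RefSeq are shown because the pair forms 1 exchanger; each runs from 250 bases before to 50 bases after an annotated start, 5′ to 3′ on the gene's strand, in build GRCm38.p6. The Slc7a11 window is chr3:50443564-50443863 on the minus strand and the Slc3a2 window is chr19:8713848-8714147 on the minus strand. Capitals mark matches to the amino acid response element TGATGCAA on either strand.
Slc7a11: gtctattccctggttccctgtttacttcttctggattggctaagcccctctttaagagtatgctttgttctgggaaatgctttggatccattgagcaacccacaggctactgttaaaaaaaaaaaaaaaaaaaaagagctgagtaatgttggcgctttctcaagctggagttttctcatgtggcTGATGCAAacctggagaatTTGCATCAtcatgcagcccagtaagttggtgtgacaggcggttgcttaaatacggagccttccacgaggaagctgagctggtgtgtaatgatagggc
Slc3a2: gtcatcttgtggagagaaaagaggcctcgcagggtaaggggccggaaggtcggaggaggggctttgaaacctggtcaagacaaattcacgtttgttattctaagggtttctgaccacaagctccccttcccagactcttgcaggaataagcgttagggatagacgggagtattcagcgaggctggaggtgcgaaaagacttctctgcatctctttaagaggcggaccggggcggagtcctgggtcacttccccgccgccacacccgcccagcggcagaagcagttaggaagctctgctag
The Slc7a11 window held 2 matches, starting 66 and 47 bases before the gene start on opposite strands, and the Slc3a2 window held 0. Only these windows and this exact sequence were searched, so a count of 0 does not show that a gene lacks the element. The element was in 294 of 32851 start windows of all genes (0.895%). Of the 44 solute carrier genes here that have a window, Slc7a11 was the only one with it. The antioxidant response element TGACNNNGC, searched on both strands, was in 11 of their 55 windows (20%) and in 12.4% of all windows, and in neither of the windows shown. These searches were chosen after the values were seen, and a match is a run of letters, not a measured site.

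The other amino acid carriers were lower in level. Slc6a15, a sodium-coupled carrier of branched-chain amino acids and proline, stood at 18.5, 23.4 and 21.9 TPM. Its aged-sec over aged log2 ratio of −0.09 turned to 0.20 and 0.16 under the 2 rescalings. Slc1a6, a glutamate carrier also called EAAT4, stood at 4.46, 9.63 and 11.3 TPM. Its aged-sec over young ratio of 2.54 was the difference that met the size rule, and its aged value missed 10 TPM, so the aged over young ratio of 2.16 did not qualify by the leading transcript, although the sum of its listed transcripts did. The other listed Slc1a6 transcript gave 4.54, 9.42 and 10.2 TPM, close to the leading one in every library. Slc38a9, the lysosomal arginine sensor of the mTORC1 pathway, stood at 1.98, 5.34 and 6.5 TPM. Like Slc1a6 it was highest in aged-sec oocytes. Slc7a14, a lysosomal protein of the cationic amino acid carrier family, stood at 2.42, 5.26 and 4.34 TPM by its leading transcript. All 3 of its annotated mRNAs were listed and summed to 6.60, 13.2 and 13.3 TPM, which moved the aged-sec over aged ratio from 0.825 to 1.01. Slc43a3, grouped here by family although it is known to carry purine bases, stood at 3.00, 5.01 and 2.80 TPM. The low members were Slc17a6, Slc7a2, Slc6a9 and Slc6a14, all under 4 TPM. Among them Slc6a9, the glycine carrier that the egg uses for volume control, stood at 0.76, 2.80 and 0.97 TPM, and Slc7a2, a cationic amino acid carrier, at 0.44, 1.61 and 2.49 TPM.

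Metal carriers made up 8 genes and summed to 129, 244 and 214 TPM. The aged-sec over young ratio of this sum was 1.66, beside 0.996 for the amino acid class and 1.06 for the inorganic ion class. These sums follow the most abundant gene of each class. The median log2 ratio over the genes of a class had another order, at 0.44 for metals, 0.66 for amino acids and 0.24 for inorganic ions. Slc39a10, which encodes the zinc importer ZIP10, gave most of the sum of the metal class. Its leading transcript NM_172653 stood at 108, 213 and 188 TPM. The 2 aged libraries lay close together and well above young, with an aged over young ratio of 1.97, an aged-sec over young ratio of 1.74 and an aged-sec over aged ratio of 0.879. All 5 annotated mRNAs of Slc39a10 were listed, so its sum covers the annotated gene. It was 117, 234 and 205 TPM, an aged over young ratio of 2.0 and an aged-sec over aged ratio of 0.876. The leading transcript held 92.4%, 91.4% and 91.8% of the sum, a nearly constant share. Among genes of its level 35 of 291 had a higher aged over young ratio. Under rescaling it stayed above young in the aged library, at a log2 ratio of 0.19, while its aged-sec over aged log2 ratio of −0.19 turned to 0.10 and 0.06.

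The copper importer Slc31a1 stood at 8.21, 10.1 and 6.96 TPM. As with Slc3a2, its aged-sec library was the lowest of the 3, with an aged-sec over young ratio of 0.848. Slc39a13, an intracellular zinc carrier also called ZIP13, stood at 5.21, 9.26 and 9.13 TPM. Its aged and aged-sec values were almost equal. The remaining genes of this class, which was assigned by family number and not by known substrate, were under 3 TPM in every library: Slc49a4, Slc41a3, Slc11a2, Slc30a4 and Slc30a6. Slc30a4, which moves zinc into vesicles, stood at 1.83, 2.20 and 1.09 TPM, and the iron importer Slc11a2 at 0.68, 2.38 and 2.82 TPM. The zinc carrier Slc30a6 was highest in the aged-sec library as well, at 1.05, 1.34 and 1.76 TPM. Slc49a4, whose single annotated mRNA was listed, stood at 2.12, 2.86 and 2.82 TPM. Of a zinc handling list of 3 genes, the metallothionein genes Mt1 and Mt2 and the zinc-sensing factor gene Mtf1, 0 were among the transcripts analysed.

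**Figure D3:**
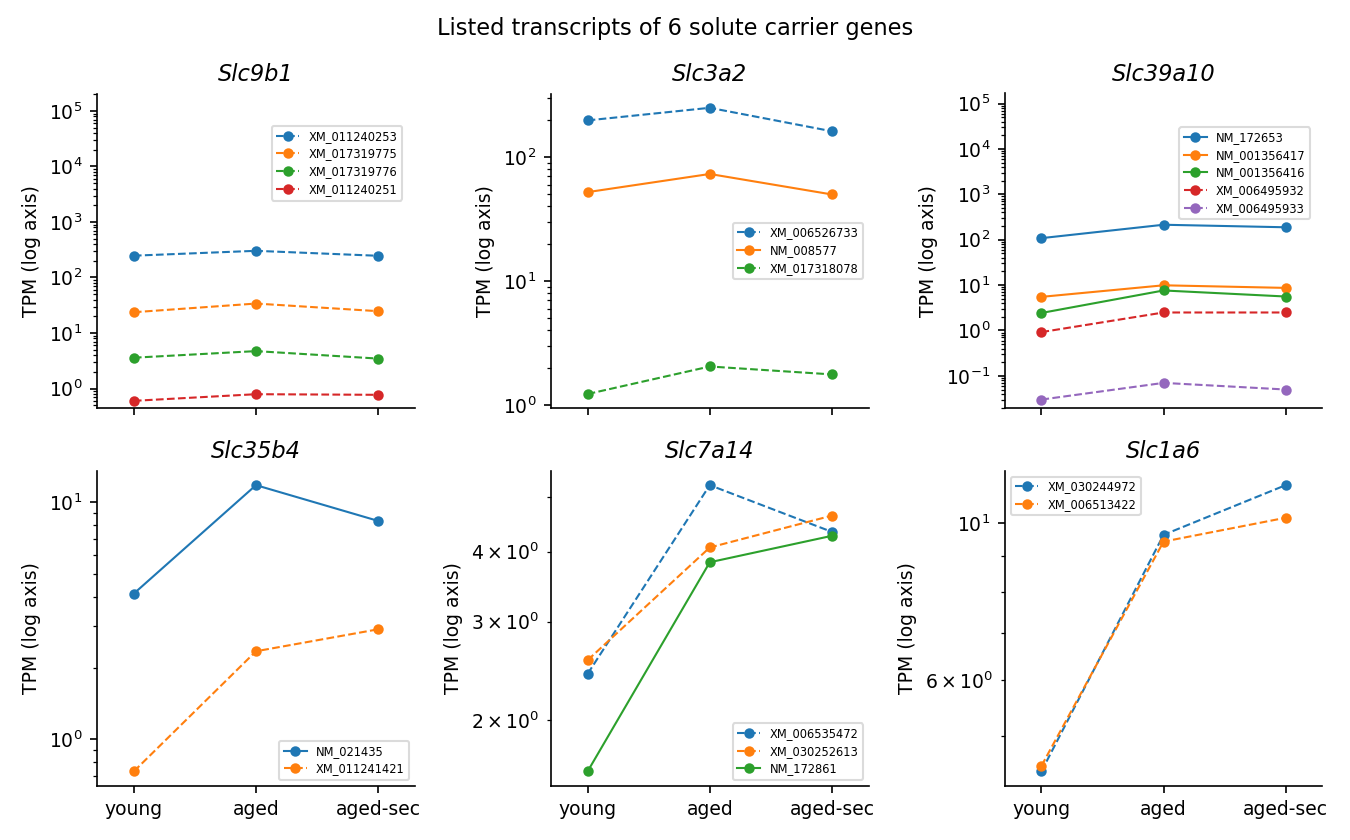
TPM on a log axis (vertical) of each listed transcript in the young, aged and aged-sec libraries (horizontal) for 6 genes, with solid lines for curated and dashed lines for predicted transcripts. The selection of the table sets every transcript higher in aged than in young. In Slc39a10 all 5 transcripts are also higher in aged-sec than in young. In Slc3a2 the 2 abundant transcripts are lowest in aged-sec, and in Slc7a14 and Slc35b4 the transcripts differ in direction from aged to aged-sec.

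Carriers of bicarbonate, protons, sodium, phosphate, chloride and calcium made up 12 genes by family and summed to 276, 368 and 292 TPM. Slc9b1, a sodium and proton exchanger best known from sperm, held most of it. Its leading predicted transcript stood at 247, 302 and 246 TPM, so that young and aged-sec were equal within 1 TPM. The aged over young ratio of 1.22 was close to the lower edge of the table, and the aged-sec over aged ratio was 0.814. All 4 listed Slc9b1 transcripts, of 8 annotated mRNAs, were highest in the aged library. Their sum was 275, 342 and 275 TPM.

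Slc4a1ap is in the list by its symbol only: it encodes kanadaptin, a protein named for binding the anion exchanger Slc4a1, and is no carrier. It stood at 10.4, 25.2 and 16.6 TPM, an aged over young ratio of 2.42 that met the size rule and an aged-sec over aged ratio of 0.661. Among the carriers proper, Slc4a7, a sodium bicarbonate cotransporter, stood at 5.40, 9.21 and 5.52 TPM. Its aged-sec value lay next to young. Slc20a1, a sodium phosphate cotransporter, was highest in aged-sec oocytes at 1.91, 4.54 and 7.29 TPM, and was the only one of the 12 whose aged-sec value exceeded the aged one (2 of the 12 did with median-of-ratios scaling). Its other listed transcript gave 1.47, 2.55 and 3.18 TPM. The sister gene Slc20a2 stood at 1.34, 2.14 and 0.42 TPM, with the lowest value in aged-sec oocytes. The chloride carrier Slc26a9 stood at 3.21, 6.47 and 3.79 TPM and the bicarbonate carrier Slc4a5 at 1.5, 5.92 and 3.97 TPM. Slc4a10, Slc4a8 and Slc9a3 stayed under 3 TPM and were highest in the aged library.

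The 8 genes of the Slc35 family, which mostly load nucleotide sugars into the Golgi for glycosylation, summed to 19.5, 35.8 and 25.8 TPM, and in all 8 the aged-sec value was below the aged one, as it was in 73.8% of all detected genes. Under either rescaling it was below in 5 of the 8 and above in 3. Slc35b4, a carrier of UDP-N-acetylglucosamine and UDP-xylose, stood at 4.12, 11.8 and 8.36 TPM. Its aged over young ratio of 2.87 met the size rule, and 76 of the 1457 genes of its level had a higher one. Both annotated mRNAs were listed and summed to 4.85, 14.2 and 11.3 TPM. The leading one held 84.9%, 83.4% and 74.2% of the sum, since the minor one was highest in aged-sec oocytes at 2.91 TPM. Slc35a5 stood at 4.91, 8.12 and 7.34 TPM. Slc35a4 stood at 4.18, 6.04 and 2.87 TPM, and its aged-sec over aged ratio of 0.475 was the lowest among the carriers with at least 5 TPM in the higher of these 2 libraries. Slc35a3, Slc35b2, Slc35g2, Slc35a2 and Slc35f2 stayed under 4 TPM. Among them Slc35a2, the UDP-galactose carrier, stood at 0.59, 1.55 and 0.58 TPM and Slc35a3, a UDP-N-acetylglucosamine carrier, at 2.81, 3.39 and 3.30 TPM.

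The remaining 13 genes were spread over 6 transport classes, and Slc44a2, Slc15a5 and Slc23a2 were the ones over 10 TPM. Slc44a2, a choline transporter-like protein, stood at 15.5, 28.5 and 23.3 TPM, with an aged over young ratio of 1.83. Slc23a2, which takes up vitamin C with sodium, stood at 8.75, 13 and 11.5 TPM. Slc15a5, a member of the peptide carrier family, stood at 9.99, 13.3 and 11.1 TPM. All 3 thus had the aged-sec value between young and aged. Slc19a1, the reduced folate carrier, stood at 1.25, 1.82 and 0.27 TPM, and its aged-sec over aged ratio of 0.148 was the lowest of the 52 genes, at a level where values are coarse. Among the sugar carriers Slc45a3 stood at 3.48, 5.69 and 3.43 TPM, Slc37a3 at 2.11, 2.66 and 2.01 TPM, and the glucose carrier Slc2a1 at 1.77, 2.33 and 2.45 TPM. Slc2a1 was highest in the aged-sec library, while Slc45a3 and Slc37a3 were lowest there. The carnitine carrier Slc22a5 stood at 2.15, 3.39 and 3.22 TPM, Slc10a7 at 1.45, 3.23 and 2.58 TPM, and Slc33a1, which brings acetyl-CoA into the endoplasmic reticulum, at 1.98, 2.47 and 2.43 TPM. The monocarboxylate family gave Slc16a11 at 1.45, 2.87 and 1.72 TPM, Slc16a10, a carrier of aromatic amino acids, at 0.76, 1.51 and 1.52 TPM, and Slc16a12 at 0.64, 1.43 and 0.41 TPM. None of the 8 annotated nucleoside carriers was among the transcripts analysed.

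**Figure D4:**
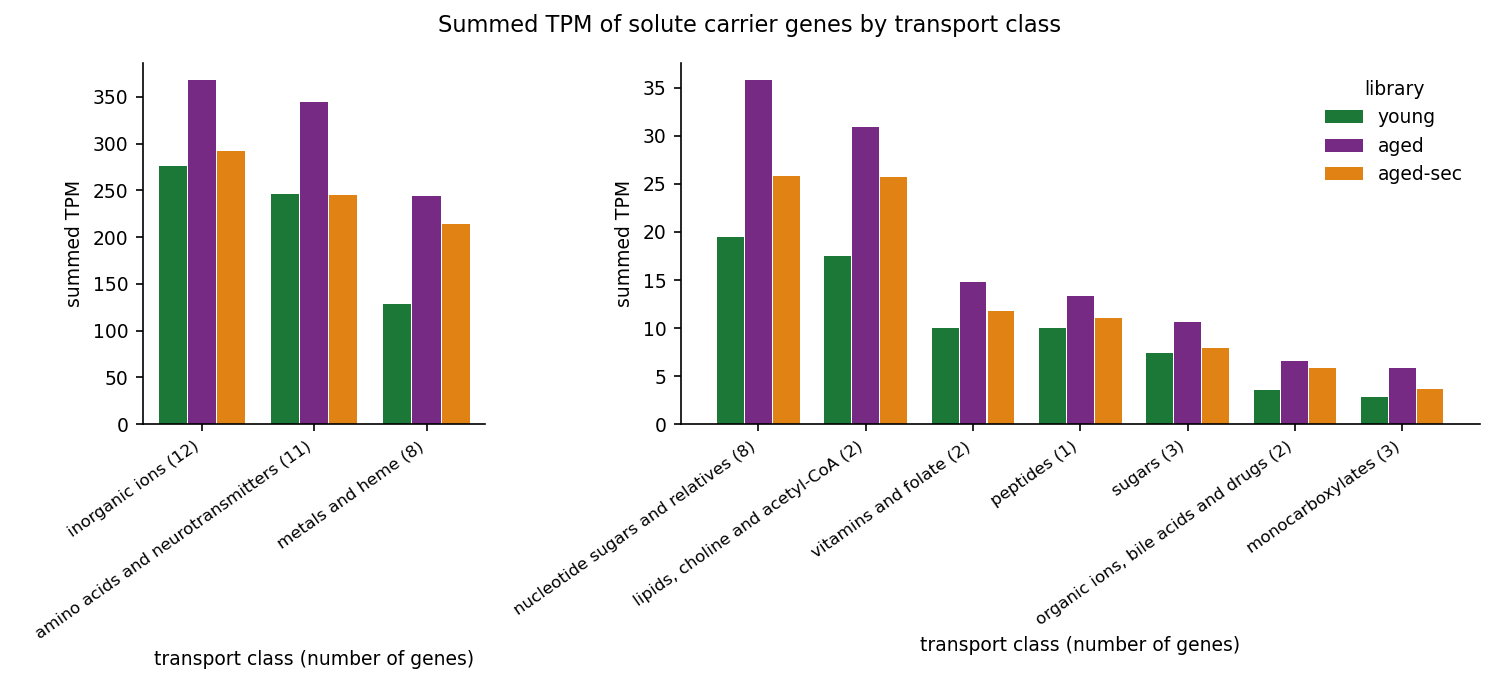
Summed TPM (vertical, from 0) of the solute carrier genes of each transport class in the young, aged and aged-sec libraries, with the number of genes in brackets; the 2 panels have different vertical scales. Metal carriers stand at 244 and 214 TPM in the aged and aged-sec libraries against 129 TPM in young, while amino acid carriers stand at 245 TPM in aged-sec and 246 TPM in young.

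Genes that work with the carriers were followed through 5 lists of 44 genes in all, of which 14 had a listed transcript and 7 reached 1 TPM. None of the 7 met the size rule between aged and young or between aged-sec and aged oocytes, and 1 met it between aged-sec and young. Only 3 of them had enough TPM in the first comparison and 4 in each of the others, beside background shares of 15.9% for higher values in the first, 0.168% for higher and 2.18% for lower values in the second, and 14.2% for higher values in the last. That 1 was Cab39, a scaffold of the kinases that set chloride cotransport, at 5.11, 9.51 and 13.4 TPM. Nedd4l, a ubiquitin ligase that removes carriers from the membrane, stood at 10.4, 15.9 and 9.16 TPM. Nptn, a neuroplastin that accompanies carriers and pumps at the membrane, stood at 16.9, 23.2 and 22.4 TPM. In the lysosomal nutrient sensing list Nprl2, a subunit of the complex that restrains mTORC1 when amino acids are scarce, stood at 35.7, 51.2 and 37.9 TPM, and Flcn, the folliculin of the same pathway, at 6.10, 7.58 and 8.59 TPM. Of the sodium pump only a transcript of Atp1b3 was listed, at 0.18, 0.70 and 0.19 TPM. The median log2 ratio of the 7 was −0.05 between aged-sec and aged oocytes, with 4 of 7 lower.

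Other families were taken by symbol as whole groups of 4 to 10 genes. Not every gene in them is a transporter: Abce1, Abcf1 and Abcf2 of the Abc group are not. The median log2 ratio of aged-sec over aged was −0.19 for 10 Slc25a mitochondrial carriers, −0.34 for 9 Abc genes, −0.23 for 7 proton pump subunits and −0.05 for 4 Mfsd carriers, against −0.31 for the 52 solute carrier genes. The aged over young medians were 0.48, 0.44, 0.59 and 0.51, against 0.67. The highest of the mitochondrial carriers, Slc25a5, which exchanges ADP for ATP, stood at 170, 237 and 231 TPM. Its aged-sec value was thus nearer to aged than to young, as for Slc39a10 and unlike Slc3a2 and Slc9b1. No test of these differences between families was possible with 1 library per group.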

How the data were processed

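The deposited table used here, whose file name speaks of raw counts, holds TPM per RefSeq transcript and library, per the file headers, and, per the file headers, the ratios of both comparisons with the aged library; dividing the TPM columns gives these deposited ratios within 6.6e-07. Which aligner, quantifier and build the authors used is not given in the sources used here. TPM were used as deposited, with no filter but 1 TPM in at least 1 library, and 1 transcript per symbol. Log2 ratios had 0.5 TPM added, which shrinks the ratios of low genes. The size rule and the medians were computed with Python 3.11.15, pandas 2.3.3 and numpy 2.4.6. Only the code of the size rule was checked on simulated data. These were made without noise, so the check says nothing on false calls between single libraries. Other tables or counts of the study were not used here, so no interval or floor is given. Of the 52 genes 23 are represented by a predicted transcript, and 50 have several annotated mRNAs, among which the quantification may divide reads. In 5 genes all annotated mRNAs were listed. Annotated mRNAs, gene numbers and start windows come from RefSeq for GRCm38.p6, in which all 52 symbols were found; no other coordinates are printed. Members, classes and lists were chosen with earlier results of these data known. Genes are named if they met the size rule, were among the 12 highest, reached a mean of 10 TPM, led a class by rank 1 or 2, or were among the 5 highest or 5 lowest aged-sec over aged ratios from 5 TPM; 28 genes were, and the others are named as low members, except for some that count in the sums and are not reported here by name. Alternatives were other pseudocounts, detection levels, transcript choices, scalings and size rules.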

Additional observations from a re-analysis of the deposited data

How the results depend on the processing

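Depth is unknown and 1 library per group leaves every value without error, so the alternatives show only how choices move the values. No paired analysis was possible because each group has 1 library. The 3 genes higher in aged than in young oocytes became 4 with summed transcripts, where Slc1a6 joined, 6 with the size rule from 5 TPM, 5 at 1.5-fold, and 0 under either scaling. Between aged-sec and aged oocytes the lower count of 0 became 1 (Slc3a2) at 1.5-fold. Between aged-sec and young oocytes the higher count of 1 became 2 with a pseudocount of 0.1 TPM, 3 with summed transcripts or the rule from 5 TPM, 4 at 1.5-fold, and 0 with curated transcripts or either scaling. The number lower in aged-sec than in aged was 20 of 23 with detection at 5 TPM and 26 of 31 with curated transcripts, as fewer genes entered. The aged over young median of 0.67 was 0.74 and 0.57 with pseudocounts of 0.1 and 1 TPM, 0.77 with detection at 5 TPM, 0.49 with no minimum, 0.65 with 1 TPM in every library, 0.69 with summed transcripts, and −0.01 and 0 with median-of-ratios and upper-quartile scaling. The aged-sec over aged median of −0.31 was, in the same order, −0.36, −0.29, −0.30, −0.28, −0.28, −0.33, −0.07 and −0.10, and −0.36 with curated transcripts. The aged-sec over young median of 0.25 was 0.31, 0.23, 0.54, 0.20, 0.30 and 0.24, then −0.12 and −0.15 under scaling, and 0.35 with curated transcripts. Scaling to the listed transcripts lowers the aged over young ratios by its construction, since these transcripts were selected for high aged values. The aged-sec over young median changed sign under both scalings, while the aged-sec over aged median stayed negative. For genes far above the pseudocount, median-of-ratios scaling moved the 3 log2 ratios by −0.79, 0.29 and −0.50. Upper-quartile scaling moved them by −0.79, 0.25 and −0.54. Low genes moved by less.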
